A study of Mus musculus with 8 samples.

Results

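The Sestrins Sesn1, Sesn2 and Sesn3 are 3 paralogous stress-inducible genes, and the m6A peaks on their mRNAs were compared in mouse embryonic fibroblasts (MEFs) with and without nutrient starvation. N6-methyladenosine (m6A) is a methyl mark on adenosines of mRNA. It was mapped by MeRIP-seq, in which fragmented mRNA is pulled down with an m6A antibody (IP) and sequenced beside an input without antibody. A peak is a stretch where the IP exceeded its input, and its fold enrichment is the IP signal over that input. All peaks carrying the gene name of a Sestrin were taken, which gave 11 of the 38705 peaks in the 4 lists. They fell on 2 of the 3 genes, since Sesn3 had none.

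The MEFs were wild-type C57BL/6 cells isolated at embryonic day 13.5 and used at passages 5 to 6. Control cells stayed in complete medium and starved cells spent 2 h in nutrient-deprived medium. Each group had 2 replicates with an IP and an input library each, 8 samples in all, and each of the 4 IP libraries had a peak list. The study describes the replicates as biological, and the labels do not say whether they came from separate embryos or separate cultures of the same cells. Peaks of 1 or more libraries lay on 5 of 7 fibroblast marker genes, and peaks of all 4 libraries on 2 of the 7. Col1a1 and Vim had none. None of the 5 markers of epithelium, endothelium and leukocytes had a peak. A peak shows that an mRNA was present, but a list without a peak does not show that it was absent.

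Sestrins connect stress and nutrient supply to growth control. When leucine is scarce, Sestrins bind the GATOR2 complex, which leaves GATOR1 free to switch off the Rag GTPases and thereby mTORC1, the kinase complex that restrains autophagy. They also promote AMPK activity and antioxidant defence through Keap1 and Nrf2. Sesn1 is a classical p53 and FoxO target, Sesn2 responds to p53, Atf4 and Nrf2, and Sesn3 to FoxO factors. The m6A mark is written by the Mettl3-Mettl14 complex within a short consensus whose core is often GGAC, and it is densest around stop codons and in long exons. The study asked which mRNAs change in m6A when nutrients are withdrawn.

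The sequences below were read from the mm10 assembly (GRCm38), from 5′ to 3′ along the mRNA, with GGAC in capitals. The first is the coding start of the long Sesn1 isoform that lay under a peak in all 4 libraries, at chr10:41811022-41811209 on the plus strand. It holds 2 GGAC motifs, and 26.4% of 21436 genes hold as many in a coding start of this length.
Sesn1 coding start: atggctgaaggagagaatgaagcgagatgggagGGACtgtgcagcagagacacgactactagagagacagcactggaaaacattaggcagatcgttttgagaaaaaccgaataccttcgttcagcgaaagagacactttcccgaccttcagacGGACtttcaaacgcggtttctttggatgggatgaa

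The next windows each show 1 motif of a 3′ UTR with 8 bases on either side, to set motifs under peaks beside motifs without one. The Sesn1 window at chr10:41907698-41907717 (plus strand) lay under the peaks of both starved libraries only. The 3 Sesn2 windows, at chr4:132493642-132493661, chr4:132493510-132493529 and chr4:132493339-132493358 on the minus strand, lay under peaks of all 4 libraries. The Sesn3 window, at chr9:14325744-14325763 on the plus strand, is the motif nearest after its stop codon and lay under no peak.
Sesn1, 348 nt after the stop codon: aaagactgGGACgtggctac
Sesn2, 63 nt after the stop codon: ctgtgcaaGGACttctgtgt
Sesn2, 195 nt after the stop codon: tcctcactGGACtgaacagg
Sesn2, 366 nt after the stop codon: gccttcctGGACtgggaagc
Sesn3, 46 nt after the stop codon: ctcgcccgGGACtcccatca

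The last coding stretch of each paralog is shown because the 3 genes share its layout and differ in peaks there. Each gene has 10 exons in the isoform used, and its last exon opens with 87 coding nt, stop codon included. In these lines the capitals mark the last 8 coding nt, which are the same in all 3 genes and in 18 of 21507 genes overall. The stretches lie at chr10:41907272-41907358 (plus strand), chr4:132493716-132493802 (minus strand) and chr9:14325620-14325706 (plus strand).
Sesn1 last coding stretch: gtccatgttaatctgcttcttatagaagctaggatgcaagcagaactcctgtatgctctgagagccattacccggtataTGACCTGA
Sesn2 last coding stretch: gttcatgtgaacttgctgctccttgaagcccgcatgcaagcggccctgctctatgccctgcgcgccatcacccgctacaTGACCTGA
Sesn3 last coding stretch: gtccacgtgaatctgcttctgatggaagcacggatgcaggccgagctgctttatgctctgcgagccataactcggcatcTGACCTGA

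Of the 87 positions, 60 (69.0%) were the same in all 3 genes. Sesn1 and Sesn3 shared 71 positions, Sesn1 and Sesn2 shared 65, and Sesn2 and Sesn3 shared 64. Over the aligned coding sequence, identity was 64.5% for Sesn1 and Sesn3, 62.3% for Sesn1 and Sesn2, and 60.7% for Sesn2 and Sesn3. None of the 3 stretches holds a GGAC, which 32.8% of all genes have in their last 87 coding nt. The 3 mRNAs thus end their coding sequence alike, and the peaks described next differ in the exons around it.

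The 11 Sestrin peaks formed 3 merged regions, a region being the union of peaks that overlap by at least 1 bp across libraries. One region lay at the Sesn1 start codon, one in the Sesn1 last exon and one in the Sesn2 last exon. The number of Sestrin peaks was 2 and 3 in control and 3 and 3 in starved replicates 1 and 2. The first region was called in every library, the second in both starved libraries only, and the third in every library.

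**Figure D1:**
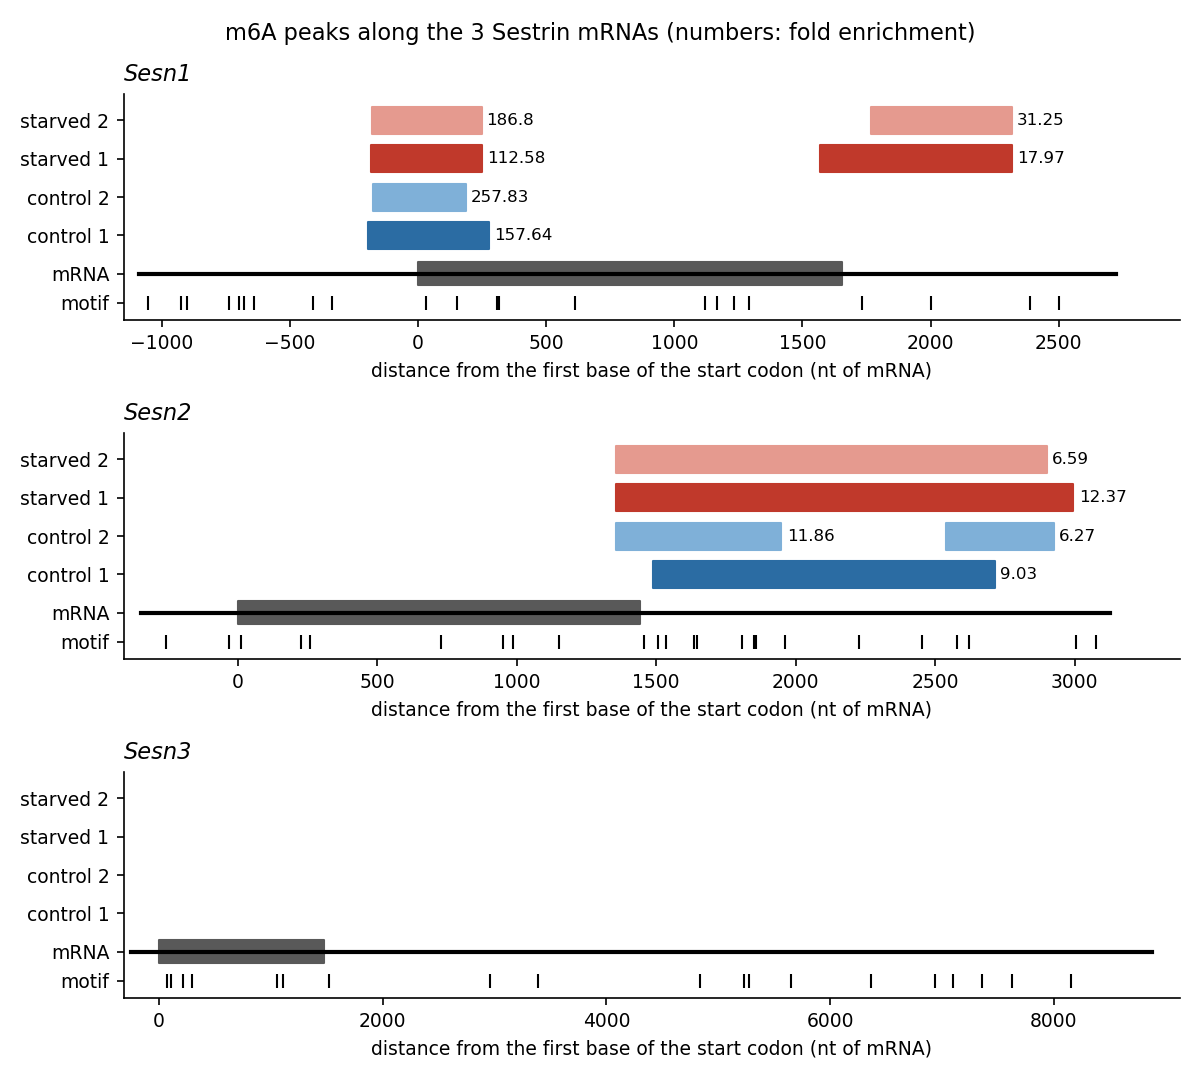
Positions of m6A peaks (coloured bars, 1 row per IP library) along the Sesn1, Sesn2 and Sesn3 mRNAs, in nt from the first base of the start codon; the thick grey bar is the coding sequence, ticks mark GGAC motifs and the number beside a bar is its fold enrichment. Sesn1 has a peak over the start codon in all 4 libraries and a last-exon peak in the 2 starved libraries, Sesn2 peaks lie in the last exon in all 4, and Sesn3 has 0 peaks.

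Sesn1, a p53 and FoxO target, carried its strongest m6A signal at the start codon of the long isoform. The region spans chr10:41810826-41811300 (475 bp) in the first exon, which the short isoform lacks. Fold enrichment was 158 and 258 in control replicates 1 and 2, and 113 and 187 in starved replicates 1 and 2. The groups overlapped, with the highest value in control replicate 2 and the lowest in starved replicate 1.

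These were among the most enriched peaks of every list. In control replicates 1 and 2, 97.9% and 99.1% of all peaks had a lower fold enrichment. In starved replicates 1 and 2 the share was 95.8% and 97.8%. The Sesn1 start codon therefore stood near the top of each list, in both media. Among the peaks that cover a start codon, the Sesn1 peak ranked 18 of 831 and 7 of 855 in control, and 30 of 923 and 21 of 774 in starved replicates. The median of such peaks lay between 13.5 and 16.3 in the 4 libraries. All 4 Sesn1 peaks had a deposited score of 3100 (the score being the negative log10 of the p-value times 10). Many peaks were tied at this value, so the score could not rank the Sesn1 peaks among them. It was not the maximum, since the tied rank was 66 and 65 in control and 79 and 90 in starved replicates. The deposited false discovery rate ran from 7.52% to 13.3%, and no list held a peak under 5.56%.

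The 4 peaks agreed closely in position. Relative to the first base of the start codon they began between -196 and -176 nt and ended between 187 and 278 nt. The stretch common to all 4 was chr10:41810846-41811209. Its GGAC motifs are the coding ones printed above, 33 and 153 nt after the first base of the start codon. The 5′ UTR upstream holds 9 more motifs in the GENCODE model, 2 of them after the gene start given by RefSeq (chr10:41810574), and none of the 9 lay under a peak. The peak of control replicate 1 ended at the exon boundary, as between 45.9% and 50.5% of the peaks of a library met such a boundary. The first exon of the short isoform, at chr10:41887439-41887595, had no peak in any list.

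At the Sesn1 start codon the control libraries averaged a fold enrichment of 208 ± 70.85 and the starved ones 149.7 ± 52.5 (SD, n = 2 each). In log2 units the starved mean (7.18) minus the control mean (7.66) was -0.475, with an SE of 0.717. The limma test over the 2257 regions called in all 4 libraries gave an adjusted p of 0.86. The two-sided exact permutation p was 0.667 (n = 2 per group), and 0.333 is the smallest that 2 against 2 libraries allow. The difference was thus smaller than its error, and single libraries moved it. It was -0.11 without starved replicate 1, -0.12 without control replicate 2, -0.83 without control replicate 1 and -0.841 without starved replicate 2. In that fit 0 of 2257 regions (0.0%) passed an adjusted p of 0.05 in either direction, with 192 at an unadjusted p under 0.05. Over all these regions the median difference was 0.104. Both starved values lay above both control values in 22.9% of them and below in 18.0%.

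The 3 regions of other genes with the most similar 4 values were in Ip6k1, Msrb3 and Frmd4a, at log2 distances of 0.535, 0.685 and 0.77. Ip6k1, an inositol hexakisphosphate kinase, had fold enrichments of 210.4 and 217.5 in control and 100.0 and 168.1 in starved replicates. These neighbours were chosen by value alone, out of the regions called in all 4 libraries.

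At the Sesn1 last exon each starved library had a peak and the control libraries had none. This exon holds the stop codon and the 3′ UTR and belongs to both isoforms. The fold enrichment was 18.0 in starved replicate 1 and 31.3 in starved replicate 2, a mean of 24.6 ± 9.39 (SD, n = 2). Over all peaks the medians were 14.6 and 14.7 in these libraries, so both Sesn1 values stood above the middle of their lists (above 57.3% and 74.1% of peaks). They were well under the start codon peaks of the same mRNA (113 and 187).

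The peak of starved replicate 1 spanned chr10:41907272-41908019 and began at the exon boundary, so that it covered the stop codon. The peak of starved replicate 2 spanned chr10:41907469-41908020 and began 111 nt after the stop codon. The 2 peaks thus ended 1 bp apart but began at different places. Of the 2 motifs in the first 500 nt of this 3′ UTR, the one at 348 nt (printed above) lay under both peaks and the one at 77 nt under the first only. Their scores were 1103 and 3100, where the lowest score in any list was 50.01. Their false discovery rates were 16.1% and 7.52%.

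The Sesn1 last-exon region was 1 of 677 regions (3.2% of 21168) that only the starved replicates had, both of them. Its mean fold enrichment was above that of 73.4% of them (median 14.1). Of 1925 genes with a region called in all 4 libraries, as Sesn1 has at its start codon, 125 (6.49%) also had a region of this starved pattern. The reverse pattern, both control libraries only, occurred in 172 (8.94%). Starved libraries also had more peaks with a score of 3100 or above (28.5% and 27.8%, against 17.0% and 13.2% in control) and higher median fold enrichment (14.6 and 14.7 against 12.2 and 12.3). The part of these library differences in the Sesn1 result was not tested. The lists hold no expression values, so a difference in m6A, in Sesn1 mRNA or in the share of cells with that mRNA cannot be told apart.

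**Figure D2:**
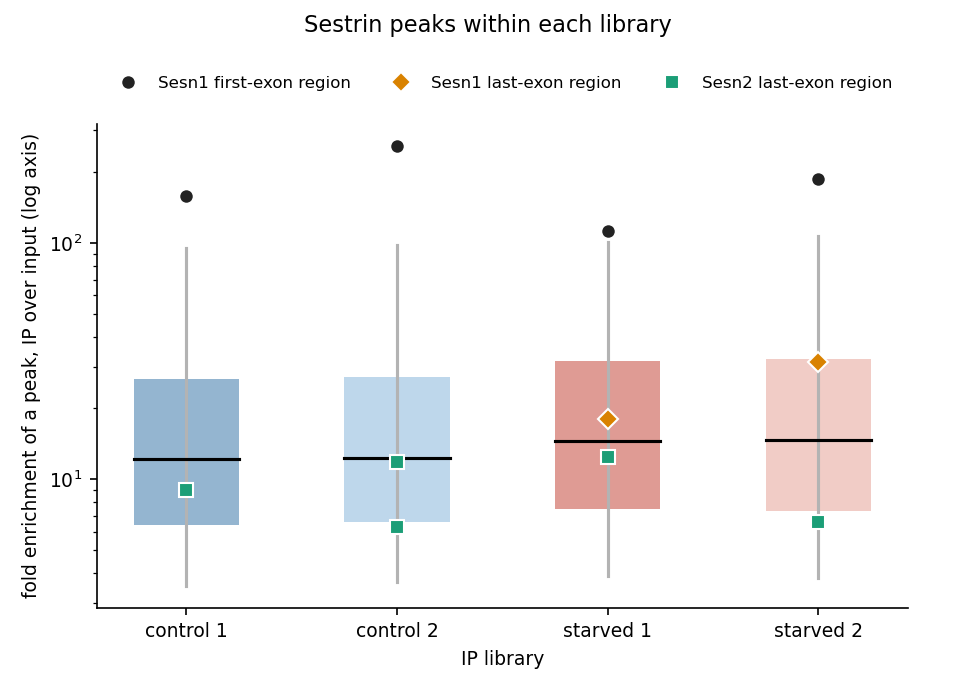
Fold enrichment (IP over input, log axis) of each Sestrin peak in the 4 IP libraries; boxes span the 25th to 75th percentile of all peaks of the library, black lines are medians and grey lines leave out 5% of the peaks at each end. The Sesn1 start codon peaks (113 to 258) lie above the grey line in every library, the Sesn1 last-exon peaks (18.0 and 31.3) appear only in starved libraries, and the Sesn2 peaks (6.27 to 12.4) lie under the medians.

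Sesn2, a leucine-binding Sestrin, carried m6A signal along its last exon in every library. The merged region spans chr4:132492163-132493802 (1640 bp of an exon of 1771 nt, minus strand). Control replicate 1 had 1 peak of 9.03, and control replicate 2 had a peak of 11.9 at the stop codon side and another of 6.27 downstream. Starved replicates 1 and 2 had 1 peak each, of 12.4 and 6.59. The groups overlapped, since the starved values were the highest and, but for the second peak of control replicate 2, the lowest.

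In contrast to the Sesn1 start codon, the Sesn2 peaks were of ordinary or low height. The share of peaks with a lower fold enrichment was 39.0% in control replicate 1, 48.6% and 22.9% for the 2 peaks of control replicate 2, and 44.2% and 21.5% in the starved replicates. None reached a score of 3100. Scores were 184 in control replicate 1, 888 and 287 in control replicate 2, and 2296 and 667 in the starved replicates. The false discovery rate was 46.4% for the peak of control replicate 1, which was thus the least secure of the 5, and between 11.6% and 27.6% for the others.

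With the higher peak taken where a library had 2, the Sesn2 region averaged 10.45 ± 2.00 in control libraries and 9.48 ± 4.09 after starvation (SD, n = 2 each). The log2 difference was -0.197 with an SE of 0.715 (limma adjusted p 0.939; exact permutation p 1.0). This difference was -0.003 with the mean of a library's peaks in place of the higher one, near 0 without control replicate 2, and -0.394 without control replicate 1. It was -0.651 without starved replicate 1 and changed sign, to 0.257, without starved replicate 2. The paper lists SESN2 among autophagy genes with a peak gaining m6A in starved cells that also gained binding of the m6A reader protein YTHDF3. Its test was of differential sites (diffReps), whereas the highest peak of a whole region is another measure. The site that the paper found was not tested here. Of all regions called in all 4 libraries, 18.4% had a lower mean than Sesn2, against 96.4% for the Sesn1 start codon. Mapkapk2, Bgn and Amotl1 had the regions most like it in value, at log2 distances of 0.32, 0.374 and 0.413. Bgn, which encodes the matrix proteoglycan biglycan, had 10.6 and 12.5 in control and 10.8 and 7.62 in starved replicates.

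The Sesn2 peaks stood out more by length than by height. Their lengths were 1225 bp in control replicate 1, 593 and 387 bp in control replicate 2, and 1640 and 1545 bp in starved replicates 1 and 2. The median peak was between 356 and 372 bp long, and 95.8% of peaks in control replicate 1 and 98.2% in each starved library were shorter than the Sesn2 peak. In control replicate 2 a gap of 589 bp (chr4:132492621-132493209) separated the 2 peaks, and 81.1% of peaks were shorter than the longer of them. Both starved peaks and the stop codon side peak of control replicate 2 began at the exon boundary and covered the last 87 coding nt. The peak of control replicate 1 began 46 nt after the stop codon.

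The Sesn2 3′ UTR is rich in GGAC. It holds 15 motifs, against 4 in the Sesn1 and 13 in the far longer Sesn3 3′ UTR (1684, 1066 and 7395 nt). In the first 500 nt after the stop codon Sesn2 has 8, Sesn1 has 2 and Sesn3 has 1. At least 8 occur in 40 of 12923 genes with such a 3′ UTR (0.31%), while 48.4% have at least 2 and 77.2% at least 1. Of the 15 Sesn2 motifs, 13 lay under a peak of at least 1 library and 9 under peaks of all 4. The gap in control replicate 2 took in 3 of the other motifs. Under its peaks Sesn2 had 7.93 motifs per kb and outside them 5.99, whereas Sesn1 had 3.27 under and 6.96 outside. The Sesn1 value outside counts all 9 motifs of the GENCODE 5′ UTR, of which 2 lie after the gene start given by RefSeq. The Sesn1 density over the whole mRNA (5.78 per kb) counts these 9 motifs too. A motif is a match of letters on the mRNA strand and not a measured m6A site.

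**Figure D3:**
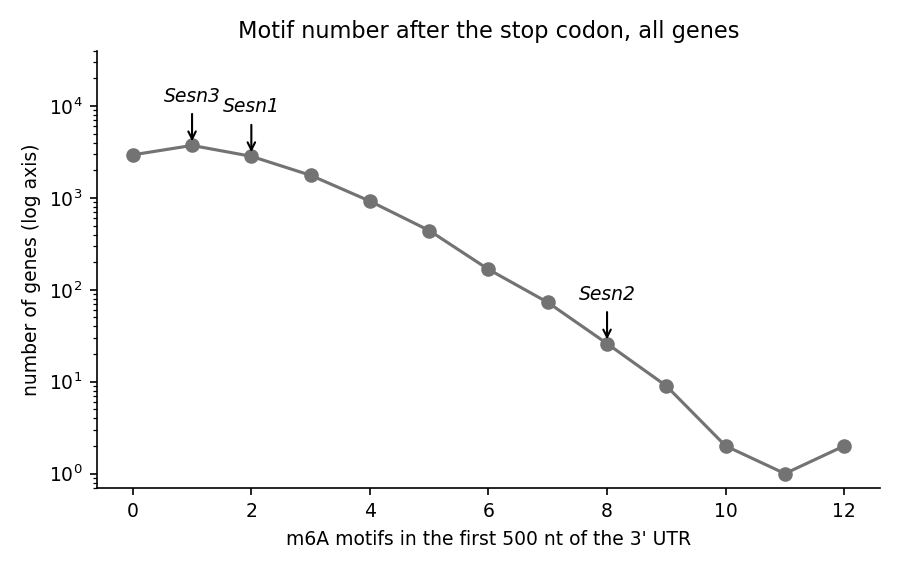
Number of genes (log axis) by the number of GGAC motifs in the first 500 nt of the 3′ UTR, over 12923 genes. Arrows mark Sesn3 with 1, Sesn1 with 2 and Sesn2 with 8, a number that 26 genes have.

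Sesn3, a FoxO target, had 0 peaks in each of the 4 lists. This held by gene name and by overlap with its exons on chromosome 9, and no peak on a Sestrin exon carried the name of another gene. Its mRNA is the longest of the 3 (9125 nt) and had the fewest motifs for its length, with 2.08 GGAC per kb against 5.78 in Sesn1, 6.91 in Sesn2 and a median of 4.01 over 21509 genes. Its coding sequence holds 6 motifs, its 3′ UTR 13 and its 5′ UTR 0. These counts are for the annotated isoform with the long 3′ UTR, and other annotated isoforms of Sesn3 end much earlier in the same last exon. Without depth or expression values, an unmethylated, a weakly covered and an unexpressed Sesn3 mRNA cannot be told apart.

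Across the family, the starved libraries had longer stretches under peaks on both mRNAs that had any. For Sesn1 the covered length was 475 and 364 bp in control and 1181 and 981 bp in starved replicates, with means of 419.5 ± 78.5 and 1081 ± 141 bp (SD, n = 2 each). The difference of 661.5 bp had an exact permutation p of 0.333. For Sesn2 it was 1225 and 980 bp in control and 1640 and 1545 bp in starved replicates, with means of 1102.5 ± 173 and 1592.5 ± 67.2 bp. The difference of 490.0 bp also had an exact permutation p of 0.333, the smallest possible. The groups did not overlap for either gene, as for 11.6% of the 9779 genes with a peak. For Sesn2 this rested on the gap of 589 bp between the 2 peaks of control replicate 2, which was not counted. From end to end these 2 peaks spanned chr4:132492234-132493802, which is longer than the peak of starved replicate 2 (chr4:132492258-132493802). Measured by this outer span, the groups overlap.

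The longer stretches in starved libraries, which the exact test could not call, had a different form in the 2 genes. At the Sesn1 start codon the peaks measured 475 and 364 bp in control and 433 and 429 bp in starved replicates. Sesn1 had 1 peak in each control and 2 in each starved library (difference 1.0, exact permutation p 0.333). More peaks in both starved libraries occurred in 5.42% of the same 9779 genes. Sesn2 had 1 and 2 peaks in control and 1 and 1 in starved libraries (difference -0.5, exact permutation p 1.0), and its peaks were longer instead. No test between the genes was run on this contrast. In the starved libraries the order of fold enrichment was the Sesn1 start codon (113 and 187), the Sesn1 last exon (18.0 and 31.3) and Sesn2 (12.4 and 6.59), with no overlap between neighbours.

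**Figure D4:**
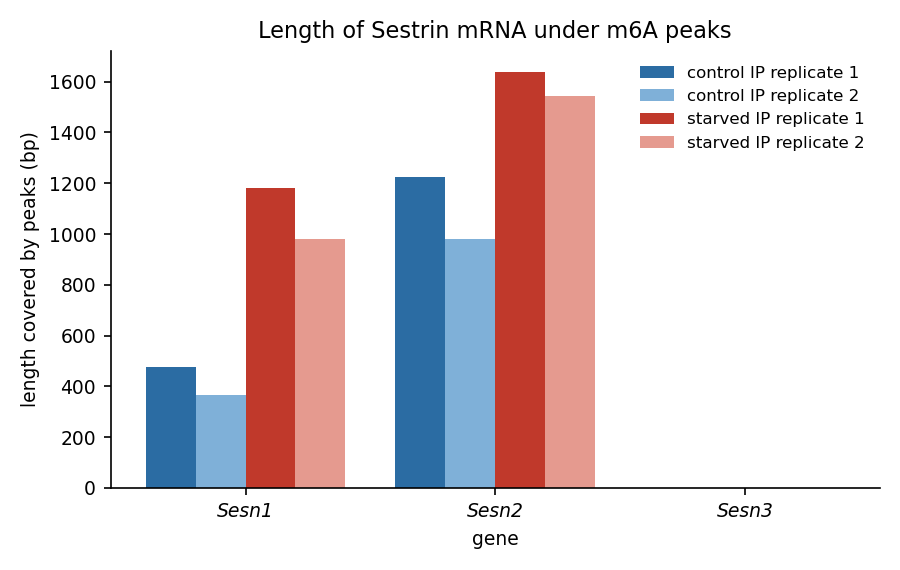
Length under m6A peaks (bp, bars from 0) of Sesn1, Sesn2 and Sesn3 in each IP library. Both starved bars exceed both control bars for Sesn1 (981 and 1181 against 364 and 475) and Sesn2 (1545 and 1640 against 980 and 1225), and Sesn3 has no bar.

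The genes through which Sestrins act were described from lists of 56 genes, of which 54 were found in the annotation. Of these 40 had a peak in some library, forming 84 regions. In the whole series 9779 genes had a peak, and the annotation used for the motif counts holds 21509 coding genes. Without expression values, a share among expressed genes cannot be given. Of the 84 regions, 8 were called in all 4 libraries, as were 2257 of the 21168 regions of the series. None of the 8 passed an adjusted p of 0.05 in the limma fit, and 1 had an unadjusted p under 0.05, against 192 of all 2257 regions. Both starved values lay above both control values in 3 of the 8 (22.9% of all regions) and below in 1 (18.0% of all regions). The median log2 difference was 0.508 over the 8 and 0.104 over all regions.

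Of the GATOR2 genes, whose complex Sestrins bind, 4 of 5 had a peak, in 8 regions. None of these was called in all 4 libraries. By name, and chosen after their values were seen, a Mios region (46.1 and 26.9) and a Wdr59 region (17.6 and 38.8) were called in both control libraries only. Over all lists 7 of the 84 regions had this control pattern, as did 4.15% of the 21168 regions, and 3 had the starved one, which 3.2% of all regions had. Those 3 were in Prkag2 (274 and 234), Keap1 (47.6 and 31.3) and Rictor (11.1 and 23.7), also named outside the rule. Prkag2 and Rictor had regions of the control pattern as well. The 3 GATOR1 genes, encoding the brake on RagA and RagB, had 0 peaks, as Sesn3 had. Peaks were found on 6 of 9 Rag and Ragulator genes, 4 of 5 genes of KICSTOR and other amino acid sensors, and 8 of 10 genes of the mTOR complexes, TSC and Rheb.

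Among AMPK genes, 8 of 9 had a peak. Prkaa1, a catalytic subunit of AMPK, had 73.0 and 69.8 in control and 51.3 and 45.3 in starved replicates, a log2 difference of -0.57. Prkag2 had a region called in both starved libraries only (274 and 234) and another in both control libraries only (8.4 and 13.5), and neither region was tested. All 6 genes of the antioxidant and autophagy list had a peak. Nfe2l2, which encodes Nrf2, had 6.79 and 3.63 in control and 6.98 and 10.4 in starved replicates (difference 0.78). Neither the Prkaa1 nor the Nfe2l2 difference passed the test.

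Transcription factors of the Sestrin genes had 5 of the 8 regions called in all 4 libraries, and 4 of 7 genes had a peak. At Foxo4, a FoxO factor, fold enrichment was 2.6 and 14.8 in control and 48.6 and 56.2 in starved replicates. Its log2 difference of 3.08 (SE 0.907) had an unadjusted p of 0.0085 in the limma fit and an adjusted p of 0.466. Cebpb, a stress-responsive bZIP factor, had 17.5 and 22.6 in control and 75.4 and 28.3 in starved replicates (difference 1.22, adjusted p 0.651). In the other 3 regions of this list the groups overlapped, and they are given beside Foxo4 outside the rule for named genes. Foxo1 had 8.73 and 8.12 in control and 13.8 and 7.67 in starved replicates (difference 0.29). Foxo3 had a region where control replicates had 26.2 and 17.7 and starved replicates 16.3 and 41.8 (difference 0.28) and another where control replicates had 8.09 and 19.6 and starved replicates 15.5 and 28.3 (difference 0.73). Over all regions called in all 4 libraries, both starved values lay above both control values in 22.9% and below in 18.0%. A contrast between the FoxO genes was not tested. Further regions of Foxo1, Foxo3 and Foxo4 were each called in 1 library and are not described. Trp53 and Atf4, which act on Sesn1 and Sesn2, had 0 peaks.

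**Figure D5:**
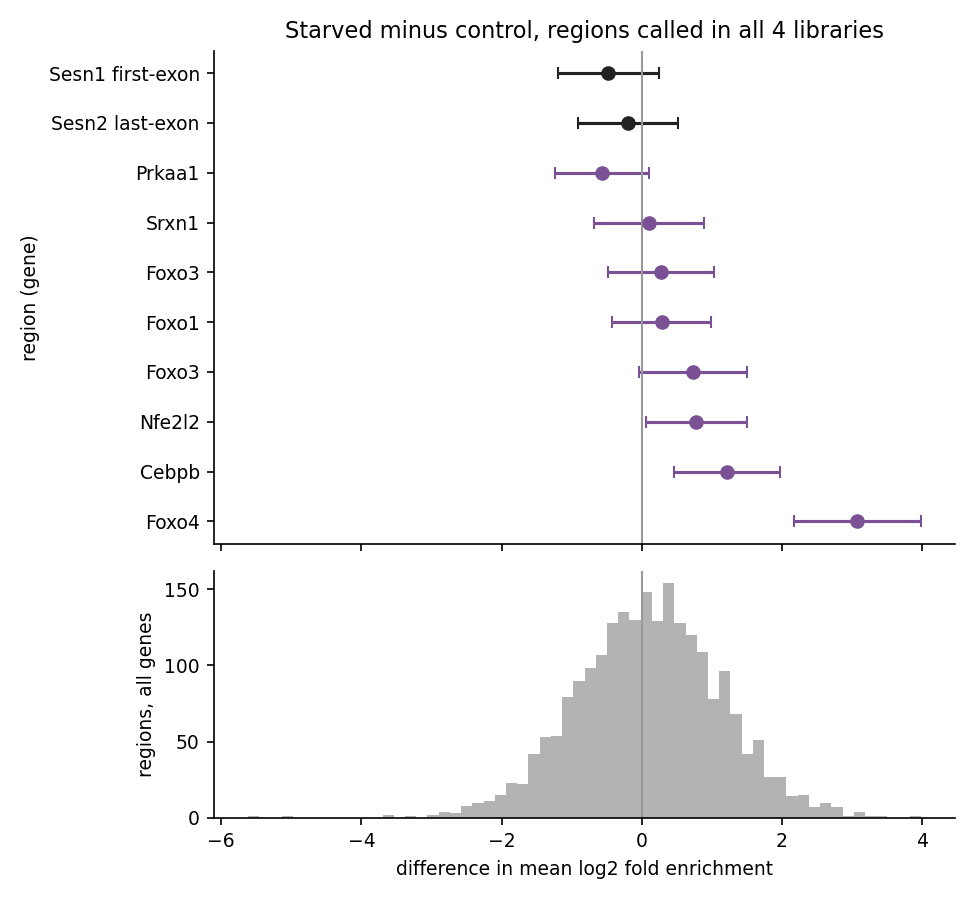
Difference in mean log2 fold enrichment, starved minus control, at the 2 Sestrin regions (black) and 8 regions of pathway genes (purple) called in all 4 libraries, with SE bars from limma, above the histogram of all 2257 such regions. Both Sestrin bars cross 0, and Foxo4 lies farthest right at 3.08.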

How the data were processed

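As the methods and labels describe, the authors purified mRNA, immunoprecipitated m6A, made strand-specific libraries, aligned reads with HISAT2 2.0.4 to mm10 and called peaks per IP library against its input. The labels and methods name MACS2 as the caller, and the methods state a version of it, but the column names of the lists are those of an earlier MACS, so the version behind the lists is uncertain. The deposited fold enrichment is a ratio of IP to the library's own input. The deposited score is 10 times the −log10 of the authors' p-value, and the false discovery rate was deposited as a percent. The lists give no reads, summits or strand, so depth and counting error are unknown. The authors' own table of group differences (fold, p-value, adjusted p and direction) was not used. 0 columns of per-sample values were unmapped.

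Peak starts were raised by 1 to count from 1. Peaks were placed on GENCODE M21 transcripts, with gene names matched to RefSeq GRCm38.p6, and overlapping peaks merged (minimum 1 bp). The highest peak of a library gave a region's value. Regions called in all 4 libraries were tested on log2 fold enrichment with limma 3.58.1 (R 4.3.3) and Benjamini-Hochberg adjustment. The fit was checked on simulated data. The planted changes were larger than the Sestrin and pathway differences given above, so power at those sizes was not checked. Single values were tested by two-sided exact permutation over libraries. Coding sequences were aligned with mafft 7.526. Motifs were the letters GGAC on the mRNA strand. Named genes were all Sestrin peaks, up to 8 pathway regions with the largest difference among those whose groups did not overlap, and the 3 nearest regions in value. Members and lists were chosen with earlier results of these data known. Alternatives were 4-fold peaks only, lists of equal length, mean of peaks, stricter merging, median centring, exon overlap, a trended prior, a replicate block and leaving out each library. Other tools were Python 3.11.15, numpy 2.4.6, pandas 2.3.3 and matplotlib 3.10.9.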

Additional observations from a re-analysis of the deposited data

How the results depend on the processing

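The Sesn1 start codon difference stayed negative under its 11 alternatives. The covered lengths of Sesn1 and Sesn2 stayed longer in starved libraries under 6 each, but these settings could hardly change that. Leaving out 1 library cannot reverse groups that do not overlap. The 4-fold and equal-length lists left the differences at 661.5 and 490.0 bp, as in the main setting. No exact test could have passed 0.05 in any of the alternatives. The Sesn3 differences were 0 throughout and have no direction. The Sesn2 region difference (-0.197, log2) changed sign to 0.257 without starved replicate 2, and the difference in Sesn2 peaks per library (-0.5) became 0.0 without control replicate 2 and -1.0 without control replicate 1. Leaving out each library in turn, the Sesn1 start codon difference (-0.475) ran from -0.841 to -0.11, the Sesn2 region difference from -0.651 to 0.257, the Sesn1 covered length from 561.5 to 761.5 bp and the Sesn2 covered length from 367.5 to 612.5 bp. The Sesn1 difference of 1.0 peak per library was the same under its 8 alternatives. With 1 peak in each control and 2 in each starved library, leaving out a library could not change it. Centring each library on its median moved the Sesn1 start codon difference to -0.687 and the Sesn2 difference to -0.409, and neither passed the test. Replicate numbers were not taken as pairs, because the study's methods do not describe them as a block. In a check, same-numbered libraries did not deviate together (correlation -0.0173 over 2257 regions). With a replicate block the Sesn1 and Sesn2 differences were again -0.475 and -0.197 (limma adjusted p 0.897 and 0.954). The number of regions past an adjusted p of 0.05 was 0 in the fit reported, 7 with the replicate block and 2 with a trended prior, and the pathway lists had 0 in the fit reported and under each of 11 alternatives. Without depth in the lists, a missing peak cannot be read as missing m6A.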
